A study of Mus musculus with 6 samples.

Results

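The regions described here are the gene-end sites that stayed open through the first day of brown fat differentiation. Peaks of 6 ATAC-seq libraries were merged wherever they shared at least 1 bp, and a region was kept when it held a peak in 6 of 6 libraries and its midpoint lay at most 1 kb from the start or end of a protein-coding gene. The rule left 5544 regions of 68913 in all, or 8.04%. Members were thus selected on the presence of a peak in each library and on distance to a gene, so neither is a finding. The rule did not use the difference in height or width between days, but it did not act on both days evenly. Of the 1560 gene-end regions called in exactly 5 libraries, 1495 lacked a day 1 peak and 65 a day 0 peak, so regions low at day 1 were left out more often than regions low at day 0. At the distance limit, the last region inside was at Zdhhc14, with its midpoint 1000 bp from the gene end and a mean height of 3.59 FPM, which here stands for fragments over the summit per 1000000 fragments of the library. The first region outside was at Eif4a1, at 1001 bp and 2.93 FPM.

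ATAC-seq uses a transposase that inserts sequencing adapters into accessible DNA, so fragments pile up where nucleosomes are displaced. The series holds 6 libraries of brown pre-adipocytes from the mouse, cells that can turn into brown fat. At day 0 there are 3, with the treatment label WT, and 3 are from day 1, with a treatment label of brown adipocyte differentiation. All 6 carry the cell line label BAT, the labels give no age, allele or inducing agent, and the series title concerns deletion of RUNX1 or RUNX2, of which no sample is used here. Whether the replicates were separate cultures is not stated, so a p-value here speaks of spread between libraries that may be technical. A population of cells was measured, so more cells with a site open and a site more open per cell cannot be told apart.

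A promoter is the stretch around the transcription start of a gene where general transcription factors and RNA polymerase assemble. Promoters of genes that nearly every cell uses tend to lie in CpG islands, DNA rich in the CG dinucleotide, and to stay free of nucleosomes whether or not a cell differentiates. Words found in such promoters include the CCAAT box bound by NF-Y, the GC box bound by Sp1 and its relatives, and the ETS core bound by factors such as GABP. Sites that open or close as a cell changes its identity lie more often in enhancers, away from gene starts.

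The sequences that go with the tallest members are shown first, since the share of promoters with a CCAAT box followed the height of the region. They are the 5 tallest members whose own gene has that word in the 120 bases before its listed start, in the order of their height, read 5′ to 3′ on the strand of the gene. Capitals mark CCAAT or its complement ATTGG, and GGGCGG or its complement CCGCCC, where the sequence holds them, and in Sp1 both overlap. Sequences and start sites are those of RefSeq on GRCm38.p6, the assembly that mm10 names.
Rab5b, chr10:128696269-128696388, minus strand: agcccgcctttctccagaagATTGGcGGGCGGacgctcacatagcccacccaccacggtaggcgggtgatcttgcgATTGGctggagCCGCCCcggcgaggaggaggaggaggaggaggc
Sp1, chr15:102406196-102406315, plus strand: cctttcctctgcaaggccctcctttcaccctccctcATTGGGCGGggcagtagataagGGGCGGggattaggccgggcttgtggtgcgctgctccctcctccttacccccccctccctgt
Mdm1, chr10:118141667-118141786, plus strand: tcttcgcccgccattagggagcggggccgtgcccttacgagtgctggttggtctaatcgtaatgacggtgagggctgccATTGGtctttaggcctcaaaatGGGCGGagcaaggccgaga
Mon1b, chr8:113635466-113635585, plus strand: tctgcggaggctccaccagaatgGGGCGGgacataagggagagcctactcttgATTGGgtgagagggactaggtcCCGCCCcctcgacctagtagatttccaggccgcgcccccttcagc
Copz1, chr15:103272768-103272887, plus strand: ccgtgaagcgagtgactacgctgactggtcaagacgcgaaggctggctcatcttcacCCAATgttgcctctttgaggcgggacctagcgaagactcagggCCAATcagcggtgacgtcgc

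A second set is shown because the word TGACTCA, the core bound by AP-1 factors of the Fos and Jun families, was more frequent among the members that were lower at day 1. Shown are the 5 members with the largest falls among those called lower that have the word before the start of their own gene, each in a window of 67 bases around the word or its complement TGAGTCA, which is in capitals together with any other searched word.
Agpat4, chr17:12119114-12119180, plus strand: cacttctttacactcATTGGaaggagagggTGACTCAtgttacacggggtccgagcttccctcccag
Tpbg, chr9:85842130-85842196, plus strand: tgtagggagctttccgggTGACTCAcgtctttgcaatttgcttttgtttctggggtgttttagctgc
S100a11, chr3:93520428-93520494, plus strand: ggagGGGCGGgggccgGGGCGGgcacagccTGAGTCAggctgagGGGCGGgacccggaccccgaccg
Glrx, chr13:75839757-75839823, plus strand: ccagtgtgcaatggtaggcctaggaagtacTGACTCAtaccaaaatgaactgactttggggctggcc
Arhgap18, chr10:26772365-26772431, plus strand: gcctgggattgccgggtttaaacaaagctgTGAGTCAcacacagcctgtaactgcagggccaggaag

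Depth and enrichment differed between the libraries. The deposited headers record 11011889, 8127635 and 9160156 fragments for day 0 replicates 1 to 3 and 4919755, 5603667 and 7302457 for day 1. Day 1 replicate 3 stands apart, with 12556 peaks against 20069 and 23274 in the other day 1 libraries despite more fragments. It also decided most borderline memberships. Of the regions called in exactly 5 libraries, 1214 lacked a peak in that library, and 6759 regions would be members without it. The median summit of a member held 45, 35 and 26 fragments at day 0 and 20, 25 and 15 at day 1, so a single summit in the shallowest libraries rests on few fragments.

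The gene-end share of the open regions rose with the number of libraries that called them. It was 9.44% of the 24108 regions found in 1 library, 9.86% of those in 2 and 8.23% of those in 3. From there it went to 19.6% in 4 libraries, 35.1% in 5 and 60.7% of the 9136 regions in 6. The other 3592 regions found in all 6 libraries lay more than 1 kb from a gene end and are called distal here. All regions with a peak in every library, members and distal alike, are called shared.

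Nearly all members whose nearest gene has a listed strand sat at its 5′ end. Where the strand of the nearest gene is listed, that gene's 5′ end was the nearest for 4476 members and its 3′ end for 70, so 98.5% were at 5′ ends. The strand was not listed for 998. The midpoint lay a median of 124 bp from the gene end, with quartiles of 56.75 and 237 bp, and 77.0% were within 250 bp. A single gene end was in reach of 4540 members, while 984 had 2 genes within 1 kb and 20 had 3. Of 21887 coding genes, 6417 had a member at an end, or 29.3%.

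Summits clustered just upstream of the start. Of 5378 members on the chromosomes covered by the promoter table, 4251 held a listed start, or 79.0%. The median summit lay 54, 55 and 59 bp upstream of the nearest start in the day 0 libraries, written as offsets of -54, -55 and -59 bp, and at -50, -48 and -48 bp in the day 1 libraries. Between 50.3% and 54.3% of the summits were in the 250 bp upstream, against 17.3% to 21.1% in the 250 bp downstream. A further 17.3% to 17.4% lay more than 1000 bp from the nearest listed start. A start can be missing from the list for a member's own gene. The regions at Mrpl15 and Tcea1 on chromosome 1, for example, lay 92 and 31 bp from the gene end but hold no listed start. The part of unlisted starts in these shares and in the 79.0% was not tested. The median summit of day 0 and that of day 1 lay a median of 28 bp apart, and 88.0% of the members were within 100 bp.

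**Figure D1:**
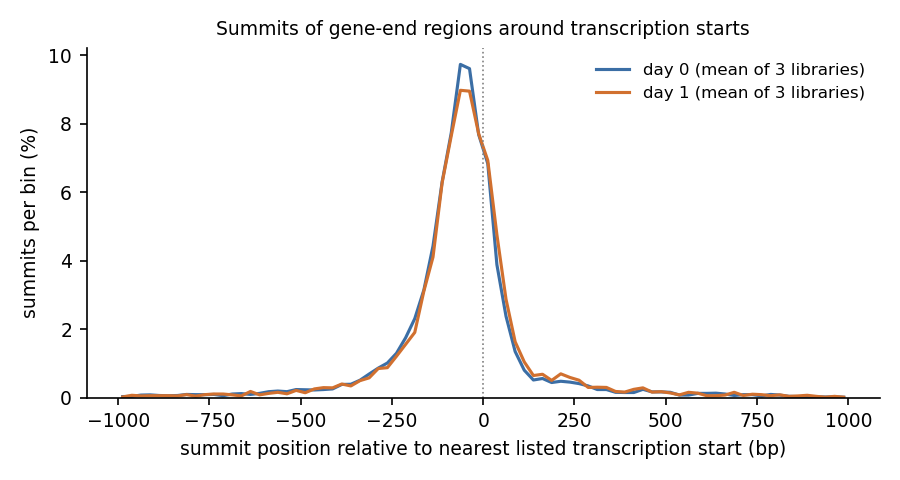
Share of member summits, in percent, in bins of 25 bp by distance from the nearest listed transcription start in bp, negative upstream, with 1 line per day that averages 3 libraries. Both days peak in the bin from -75 to -50 bp, at 9.73% of summits for day 0 and 8.97% for day 1.

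Members were wider than distal regions and ranged from narrow, single summits to clusters of more than 2 kb. The median width of the merged region was 765 bp, with quartiles of 616 and 944 bp and a range of 193 to 2245 bp. Distal regions had a median of 616 bp. In 4572 members each library called 1 peak, and in 972 at least 1 library called several. The widest were at Alyref2, which encodes an mRNA export adaptor, with 2245 bp, and at Ddit3, which encodes the stress factor CHOP, with 2206 bp. Ppp6r2, Ilvbl and the ribosomal protein gene Rpl7 followed with 2134, 1971 and 1926 bp. The narrowest were at Rbm12b2 with 193 bp, Trmt2b with 211 bp, Miip with 215 bp, and the kinase gene Sik1 and Traf3ip1 with 216 bp each.

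Height is the pileup at the highest summit of a region, scaled to FPM by the fragment total in the header of its library. The median over members was 4.09, 4.31 and 2.84 FPM in the day 0 libraries and 4.07, 4.46 and 2.05 at day 1. The days overlapped, with the lowest value in day 1 replicate 3. The means were 3.74 ± 0.792 (SD, n = 3) and 3.53 ± 1.29 (SD, n = 3), and the difference of -0.217 was within the spread between libraries (two-sided exact permutation p = 0.8, where 0.1 is the smallest p that 3 against 3 allows). Its sign rested on single libraries, since it was 0.520 without day 1 replicate 3.

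The width of the peaks in the members overlapped between days. Its median was 669, 594 and 502 bp at day 0 and 430, 530 and 361 bp at day 1. The means of 588 ± 83.6 and 440 ± 85.0 bp (SD, n = 3) differed by -148 bp (two-sided exact permutation p = 0.2). The day 1 libraries held fewer fragments in all, and replicate 3, with the narrowest peaks, held the most of that day. Within each day the widths followed the order of the median summit pileup of members. That pileup was 45, 35 and 26 fragments at day 0 and 20, 25 and 15 at day 1. The part of depth and of summit signal in this difference was not tested.

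Set against distal regions of the same library, the members stood taller in all 6 libraries, with the higher ratios at day 1. The ratio of the median heights was 1.18, 1.21 and 1.18 at day 0 and 1.25, 1.39 and 1.25 at day 1. Every day 1 library was above every day 0 library. The mean ratio went from 1.19 ± 0.0138 to 1.30 ± 0.0802 (SD, n = 3), with a two-sided exact permutation p = 0.1, the smallest possible. A limit of 2 kb for the gene end left a difference of 0.0648 with overlapping days (exact permutation p = 0.4). Off chromosomes 10 and 15 the difference was 0.0875 (exact permutation p = 0.3). Regions without a peak in some library are in neither median. Among gene-end regions a missing peak was more often one of day 1, and the part of this in the ratio was not tested.

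The tallest peaks of a library were mostly in members. Of the 1000 peaks with the highest pileup, 67.3%, 67.7% and 61.7% lay in members at day 0 and 77.2%, 80.5% and 78.8% at day 1. The groups did not overlap, and the mean share went from 65.6% ± 3.35 to 78.8% ± 1.65 (SD, n = 3), by 13.3 percentage points (two-sided exact permutation p = 0.1, the smallest possible). The share uses the same number of peaks in each library. However, of the gene-end regions called in exactly 5 libraries, 1495 lacked a day 1 peak and 65 a day 0 peak. Tall day 0 peaks lost at day 1 cannot lie in members, and the part of this in the share was not tested.

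**Figure D2:**
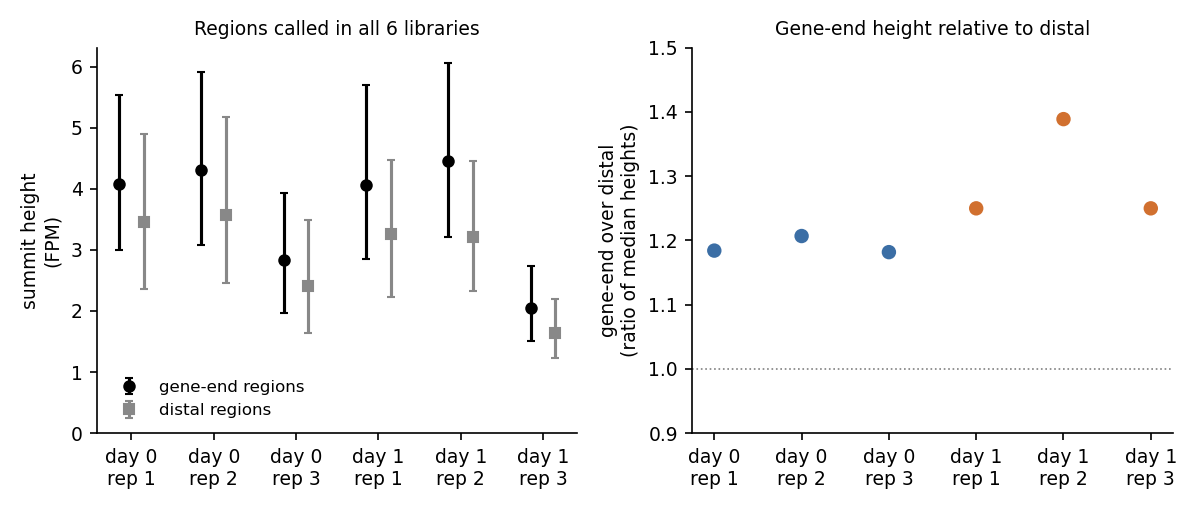
Left, summit height in FPM for 5544 gene-end and 3592 distal regions in each of the 6 libraries, as the median with bars from the lower to the upper quartile. Right, the ratio of the 2 medians per library, on an axis that starts at 0.9, which runs from 1.18 to 1.21 at day 0 (blue) and from 1.25 to 1.39 at day 1 (orange).

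Members with several genes were slightly taller and wider. Those with 2 or more gene ends within 1 kb had a median peak width of 732, 645 and 552 bp at day 0, against 655, 582 and 493 bp for members with 1 gene. Their median height was higher in each of the 6 libraries, for example 4.27 against 3.86 FPM in day 1 replicate 1. The 70 members at 3′ ends were lower and narrower in each library, with a mean of the day 0 medians of 3.36 FPM and 463 bp, against 3.74 FPM and 590 bp at 5′ ends.

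The order of the members by height was similar in all libraries. Over the 5544 members, Pearson's r of the log2 heights was 0.807 to 0.905 for the 6 pairs of libraries of the same day and 0.755 to 0.822 for the 9 pairs across days. These are correlations across regions, which share library and sequence composition and are not independent replicates.

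Of the 10 tallest members, 8 were nearest to a 5′ end. The tallest of all was at the 3′ end of Lars2, a mitochondrial leucyl-tRNA synthetase, at chr9:123461798-123462187, with 21.6, 32.7 and 17.6 FPM at day 0 and 35.4, 38.4 and 27.0 at day 1. It was called higher at day 1 on the relative scale described below, with a log2 change of 0.73 (limma adjusted p = 0.000788). At 390 bp it was also narrow for its height, with a mean of 28.8 FPM against a median of 3.59 over members. No list of regions that collect excess reads was used here, and whether this is such a region was not tested.

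Next came Hjurp, the chaperone of the centromeric histone CENP-A, with 22.1 FPM on average and a range of 14.8 to 28.1 over the libraries. Rab5b, a GTPase of early endosomes, had 18.6, and Zbtb20, a zinc finger transcription factor, 16.4. Mtrf1l, a mitochondrial translation release factor, and Rxylt1, a glycosyltransferase, had 15.9 each. Pa2g4, a growth-related RNA-binding protein, had 15.7, Esyt1, a tether between the endoplasmic reticulum and the plasma membrane, 14.8, Sp1, the GC box factor itself, 14.2, and Eny2, a subunit of the SAGA coactivator, 14.0. The 5 regions whose sequences are printed above include Rab5b and Sp1 and also Mdm1 with 13.5, Mon1b with 13.0 and Copz1, a subunit of the COPI vesicle coat, with 12.7. Of the 7 tallest members that hold a listed start, 5 have CCAAT within the 300 bases of the promoter table.

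Promoters in members were richer in GC and CpG than promoters at large. The table gives 300 bases per promoter, from 250 before to 50 after the start. Of 21263 promoters of coding genes, 5294 lay in 4251 members. Their median GC content was 62.3% against 56.3% over all promoters, and the ratio of observed to expected CpG was 0.818 against 0.567. The ratio passed 0.6 in 85.8% of them, against 47.6% of all promoters.

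In all, 10 words were searched exactly, on both strands, and a match is a description and not a bound site. The GC box GGGCGG was in 73.2% of the promoters in members and 46.2% of all promoters, and the ETS core CGGAAG in 41.0% and 21.1%. CCAAT was in 46.0% and 38.2%. The NRF1-like word GCATGCGC was in 6.55% and 3.52%, the word CTCGCGAG in 2.83% and 1.24%, and the YY1-like word AAGATGGC in 5.67% and 3.05%. The E-box CACGTG was in 11.1% and 7.84%, and the CREB-type word TGACGTCA in 3.89% and 2.23%. The TATA-like word TATAAA was rarer in members, at 5.16% against 12.6%, and so was TGACTCA, at 2.64% against 4.66%. Words with a CpG follow the base composition of the promoters, and the part of composition in these shares was not tested.

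The share of promoters with CCAAT rose with the height of the member. Over deciles of mean height it was 22.4% in the lowest, 43.7% in the fifth and 68.1% in the tallest, and it rose at each step. The lowest decile was below the share of all promoters, and the tallest was above it. The same held in each library on its own, with 65.6% to 70.2% in the tallest decile and 22.5% to 31.1% in the lowest. Median GC content went from 60.7% to 63.0% over the same deciles, and the CpG ratio from 0.825 to 0.809.

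The other frequent words did not follow height in this way. The GC box was in 62.2% to 70.0% of the lowest decile and 75.8% to 78.5% of the tallest over the libraries. The ETS core was in 35.8% to 39.4% and 36.7% to 40.8%. The 2062 members with CCAAT were taller than the 2189 without, by a ratio of medians of 1.23 to 1.36, in 6 of 6 libraries. For the GC box the ratio was 1.07 to 1.18, and members with TATAAA were lower than those without in each library, at 0.846 to 0.911. Within promoters, 38.2% of the 4298 CCAAT words in members lay between 120 and 50 bases before the start, against 33.9% of the 7739 words in promoters outside members. In the tallest decile of members 37.1% of 825 words lay there, so this share was not higher in the tallest members.

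**Figure D3:**
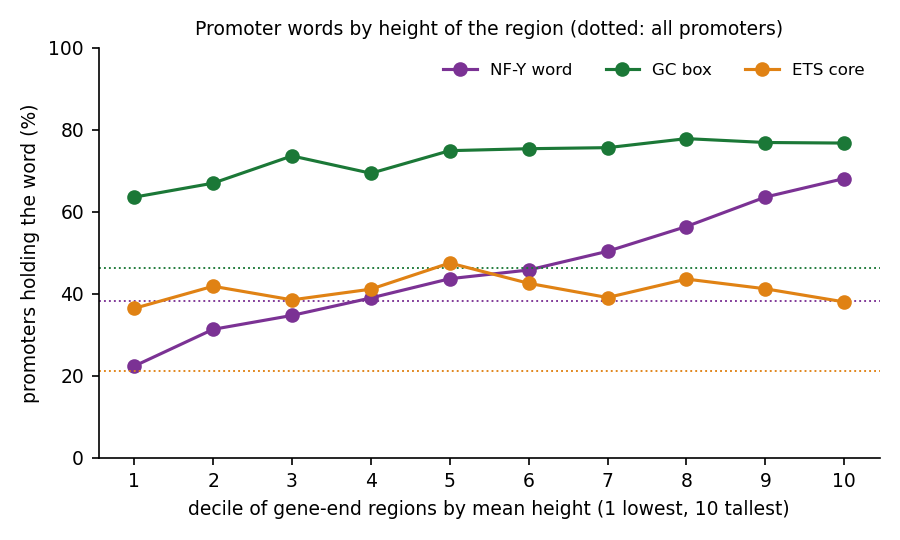
Percent of promoters that hold a word on either strand, for deciles of the gene-end regions from lowest (1) to tallest (10) by mean height, with the share of all coding promoters as a dotted line in the same colour. The NF-Y word is CCAAT, which climbs from 22.4% to 68.1%, while the GC box (GGGCGG) and the ETS core (CGGAAG) stay above their dotted lines throughout.

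Height also followed the chromosome. Members on chromosome 10 had a median of 1.23 to 1.35 times the library's median over members and those on chromosome 15 of 1.27 to 1.40 times, in 6 of 6 libraries. The 162 members on X had 0.700 to 0.800 times. The other 17 chromosomes with members were between 0.840 and 1.09. Of the 10 tallest members, 7 were on chromosomes 10 or 15, as were 28.3% of the tallest decile against 10.9% of all members.

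The rise on chromosome 10 began past its first 60 Mb. Members between 0 and 60 Mb had medians of 0.885 to 1.11 over the libraries in bins of 20 Mb, those from 60 to 80 Mb of 1.23 to 1.33, and those from 80 to 140 Mb of 1.42 to 1.66. On chromosome 15 every bin was at 1.07 or more in each library. The local background that the authors' fold enrichment implies was higher there too, at 1.45 to 1.5 times the library's median on chromosome 10 and 1.45 to 1.54 on 15, and lower on X, at 0.713 to 0.772. After division by that background, the members' fold enrichment was 1.03 to 1.07 times the median on chromosome 10 and 0.996 to 1.06 times on 15, and on X it stayed below, at 0.880 to 0.945 times. Whether the number of copies of these chromosomes differs in this cell line was not tested. Without both chromosomes the CCAAT share still rose from 23.1% in the lowest to 69.5% in the tallest decile.

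**Figure D4:**
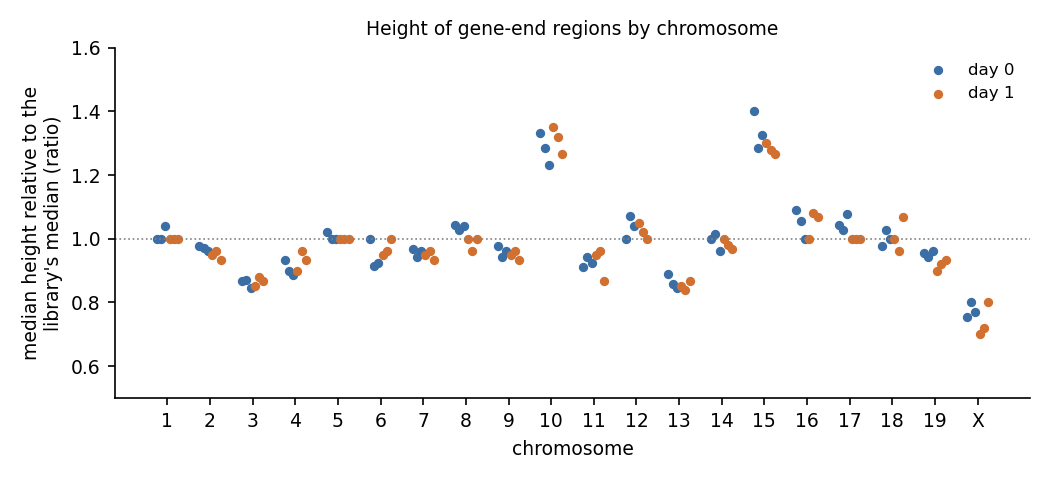
Median height of gene-end regions on each chromosome relative to the median over all gene-end regions of the same library (ratio, 1 as the dotted line), with 1 point per library, day 0 in blue and day 1 in orange. Chromosomes 10 and 15 are at 1.23 or more in all 6 libraries and X at 0.800 or less.

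Lists of general cell maintenance genes had a member more often than coding genes at large. Genes were grouped in 30 lists, and a region can serve 2 neighbours that share a promoter, as for Hsp90b1 and Ttc41. Of 24 chaperone genes, 21 had a member, with Hsp90b1 the tallest at 12.8 FPM and Tcp1, a subunit of the TRiC chaperonin, at 7.54. In the cholesterol pathway 17 of 22 genes had one, led by Hmgcs1, the HMG-CoA synthase, at 10.4, and Srebf2, the pathway's main regulator, at 7.1. Of 30 glycolysis and TCA cycle genes, 22 had one, such as Pdhb at 9.09 and Fh1 at 8.54. Among genes named as translation factors or their relatives 49 of 69 had one, and the tallest was that of Eif2ak3, the stress kinase PERK, at 9.62. Against 29.3% over all coding genes, the shares in these 4 lists were 87.5%, 77.3%, 73.3% and 71.0%.

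Further lists had shares from 70.1% for splicing factors down to 33.3% for histone genes, against 29.3% of all coding genes. Splicing factors had members at 47 of 67 genes, the cytosolic ribosome at 50 of 84, the mitochondrial ribosome at 47 of 78, oxidative phosphorylation at 46 of 77 and the proteasome at 22 of 39. Insulin and mTOR signalling had 16 of 23, with Gsk3b at 8.72 FPM. The clock genes had 11 of 19, led by Nr1d2, which encodes REV-ERB beta, at 10.9. Immediate early genes, which many signals induce within minutes, had 13 of 24, with Jun at 6.24 and Egr1 at 5.84. Histone genes had 33 of 99 in 20 regions, since neighbours in the clusters share a promoter.

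Genes of cell identity were mostly without a member. Of 1106 olfactory receptor genes, which fibroblast-like cells do not use, 0 had one, and 0 of 12 endothelial, 0 of 12 immune and 0 of 9 myogenic genes. Hox genes had 2 of 39, or 5.13% against 29.3% of all coding genes, through 1 region shared by Hoxa5 and Hoxa6. Thermogenic and brown fat genes had 2 of 21, or 9.52%. These were the nuclear receptor gene Esrra with 6.75 FPM and Zic1, a mark of brown fat precursors, with 3.49. The list of the RUNX family and its partners was above the share of all coding genes, but not through a RUNX gene. Of its 9 genes 4 had a member, or 44.4%, at Tle1, Cbfa2t2, Cbfb and Runx1t1. None of the 4 encodes a RUNX factor itself. Cbfb, the common partner subunit of RUNX proteins, had 3.09, 4.31 and 2.62 FPM at day 0 and 3.86, 3.57 and 1.64 at day 1, with overlapping days.

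Markers of the labelled cell type were checked the same way. A list of 21 precursor and mesenchymal genes had a member at 5, namely Hes1, Itgb1, Nt5e, Sox9 and Vim, or 23.8% against 29.3% of all coding genes. Of 10 narrower markers of brown pre-adipocytes and mesenchymal cells, 1 had a member, the intermediate filament gene Vim with 4.93 FPM. A gene-end peak in 3 of 3 day 0 libraries was found at 5 of the 10, namely Vim, Col1a1, Ebf2, Ly6a and Pdgfrb, and at day 1 at Vim alone. The other 5, Pdgfra, Cd34, Dlk1, Thy1 and Zfp423, had no gene-end peak in any library. Of 10 brown adipocyte markers 0 had a member, and a gene-end peak in 3 of 3 libraries was found at Fabp4 and Ppargc1a at day 0 and at Cidec at day 1. Among 6 endothelial markers Kdr had a gene-end peak in 3 of 3 day 0 libraries, while 0 of 6 immune and 0 of 5 myogenic markers had one in 3 of 3 libraries of either day. Peak lists were longer at day 0, with 55511, 41993 and 39211 peaks against 20069, 23274 and 12556 at day 1. The part of this in the marker counts by day was not tested. Shares by day over all coding genes are not given here.

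To ask which members changed between days, the log2 pileup was centred on each library's median over the shared regions and fitted in limma over all 9136 shared regions, with Benjamini-Hochberg adjustment and a threshold of 0.05. A value on this scale is a height relative to the library's typical shared region. Of the 5544 members, 252 (4.55%) were higher at day 1 and 94 (1.70%) lower, where the background over all shared regions was 7.73% higher and 6.88% lower. Regions that lacked a peak in a day 1 library are not in either count, and their part in the split between higher and lower was not tested. Distal regions had 454 higher and 535 lower, or 27.5% called against 6.24% of the members. The log2 changes had an SD of 0.318 over the members and 0.645 over the distal regions, with medians of 0.08 and 0.00.

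The scaling decides most of these calls. On heights in FPM, not centred, limma called 2 members higher and 1 lower, where the background was 0.328% and 0.525%, and the median change of the members was -0.13 against -0.15 over all shared regions. Quantile normalization gave 179 higher and 115 lower and moved the share of higher calls from 72.8% to 60.9%, and leaving out day 1 replicate 3 gave 198 and 122, or 61.9% higher. Of the 252 members called higher, 237 had all 3 day 1 values above all 3 day 0 values on the relative scale but 27 did so in FPM. Of the 94 called lower, 86 and 59 were separated in this way. Since the calls were made on the relative heights, separation on that scale adds no support to them. The share of separated regions over all members or all shared regions is not given here.

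**Figure D5:**
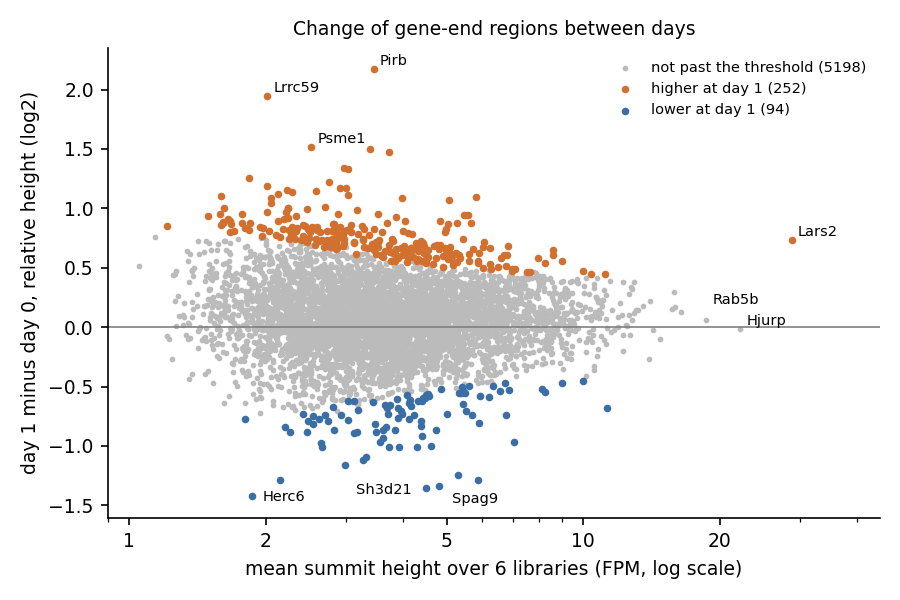
Difference between days in relative height (log2, day 1 minus day 0) against mean summit height over the 6 libraries (FPM, log axis), with 1 point per gene-end region. The 252 regions called higher are orange, the 94 called lower blue and the 5198 others grey, and the 10 tallest members other than Lars2, which is at 0.73, lie between -0.10 and 0.30.

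The named members that were higher at day 1 on the relative scale had log2 changes from 1.18 to 2.17. The largest was at the 3′ end of Pirb, an inhibitory receptor best known from immune cells, at chr7:3712176-3712786. Its height was 1.27, 1.72 and 0.983 FPM at day 0 and 5.28, 8.74 and 2.74 at day 1. All 3 day 1 libraries were above all day 0 libraries, and the log2 change was 2.17 ± 0.24 (SE, limma adjusted p = 2.76e-09).

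Lrrc59, a ribosome-binding protein of the endoplasmic reticulum, had 1.09, 0.861 and 0.764 FPM at day 0 and 4.07, 3.39 and 1.92 at day 1, again without overlap. Its log2 change was 1.95 ± 0.27 (SE, limma adjusted p = 5.15e-07). The day 0 summits held 12, 7 and 7 fragments, where the lowest member summit of these libraries held 7, 7 and 5. Pirb and Lrrc59 were the 2 members called higher also without centring.

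Fitm2, an endoplasmic reticulum protein needed for lipid droplet formation, had 2.00, 2.95 and 1.42 FPM at day 0 and 8.13, 5.18 and 2.74 at day 1. The lowest day 1 value overlapped day 0 in these units, while the relative heights did not overlap. The log2 change was 1.47 ± 0.22 (SE, limma adjusted p = 2.42e-06).

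Both Ivd and Bcat2 encode mitochondrial enzymes of branched-chain amino acid breakdown. The region at the 3′ end of Ivd had 1.82, 2.09 and 1.86 FPM at day 0 and 5.89, 5.53 and 3.15 at day 1. Bcat2 had 1.73, 2.34 and 1.53 and then 5.28, 4.82 and 2.46. In both, every day 1 library was above every day 0 library, with log2 changes of 1.5 and 1.33.

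Among the others were Psme1, the alpha subunit of the PA28 proteasome activator, with a log2 change of 1.52, and Uck2, a uridine-cytidine kinase, with 1.34. Phkg1, a catalytic subunit of phosphorylase kinase, had 1.26, and Gnaq, the alpha subunit of the Gq protein, 1.22. Susd1 had 1.19, and Sdf4, a calcium-binding protein of the Golgi, 1.18. The limma adjusted p of these 6 ranged from 7.59e-06 for Psme1 to 0.00106 for Susd1. Mean heights of the named higher members ran from 1.83 FPM at Phkg1 to 3.74 at Fitm2.

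The bases before the start of Fitm2 and of Psme1 are shown as examples from the higher members. Both hold a GC box and neither holds TGACTCA or CCAAT in this stretch, which is not particular to higher members. The GC box was in 75.8% of promoters in members called higher, 70.8% in those called lower and 73.2% in all members. TGACTCA was in 2.64% of all promoters in members. Capitals mark the searched words, here GGGCGG and, in Fitm2, the NRF1-like word with the 2 bases before it, which belong to an overlapping match on the other strand.
Fitm2, chr2:163472630-163472749, minus strand: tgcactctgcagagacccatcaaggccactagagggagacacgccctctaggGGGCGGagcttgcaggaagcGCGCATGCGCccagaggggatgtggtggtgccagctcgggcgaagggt
Psme1, chr14:55578374-55578493, plus strand: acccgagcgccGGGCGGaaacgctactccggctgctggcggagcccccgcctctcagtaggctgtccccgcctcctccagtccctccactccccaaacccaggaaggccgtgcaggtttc

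The 12 named members that were lower at day 1 had log2 changes from -1.43 to -1.01. Herc6, a ligase of the interferon-induced modifier ISG15 in the mouse, had 3.09, 3.2 and 2.18 FPM at day 0 and 0.813, 1.07 and 0.822 at day 1. The days did not overlap, and the log2 change was -1.43 ± 0.29 (SE, limma adjusted p = 0.000213). It was the 1 member called lower also without centring. Its day 1 summits held 4, 6 and 6 fragments, where the lowest member summit of these libraries held 4, 5 and 5. A lower summit would hardly have been kept as a member.

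Ifit1bl1, of the interferon-induced IFIT family, had 3.63, 3.08 and 2.73 FPM at day 0 and 1.02, 1.61 and 0.822 at day 1, without overlap. Its log2 change was -1.29 ± 0.27 (SE, limma adjusted p = 0.000384). The day 1 summits held 5, 9 and 6 fragments, also near the lowest of the members.

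Lox, which encodes lysyl oxidase, a crosslinker of collagen, had 4.72, 6.15 and 3.17 FPM at day 0 and 2.03, 2.32 and 1.23 at day 1. All day 0 libraries were above all day 1 libraries, with a log2 change of -1.12 ± 0.22 (SE, limma adjusted p = 0.000228). On the authors' fold enrichment it was -0.53 and not past the threshold (limma adjusted p = 0.105).

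In the list of 29 matrix and fibroblast genes 6 had a member, and 3 of them were called lower and 0 higher, where 1.70% of all members and 6.88% of all shared regions were lower. Besides Lox these were Fn1, which encodes fibronectin, with a log2 change of -0.78, and Timp1, a metalloproteinase inhibitor, with -0.77. The median of the 6 was -0.42, against 0.08 over all members. The other 3, Loxl1, Sparc and Vim, were not called. None of the 3 calls remained on the authors' fold enrichment or without centring, and after quantile normalization 3 members of the list were called.

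Agpat4, a lysophosphatidic acid acyltransferase, had 8.99, 11 and 5.90 FPM at day 0. At day 1 it had 3.66, 3.93 and 1.78, all below day 0, with a log2 change of -1.29 ± 0.17 (SE, limma adjusted p = 2.49e-07). Spag9, the JIP4 scaffold of JNK signalling, went from 7.17, 8.86 and 5.35 to 2.64, 3.39 and 1.51, with -1.34. The regions at the 3′ ends of Sh3d21 and of Anxa5, a phospholipid-binding annexin, had -1.35 and -1.25.

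Tpbg, a surface glycoprotein that dampens Wnt signalling, had 3.90, 4.06 and 3.06 FPM at day 0 and 2.44, 1.43 and 1.10 at day 1. The days did not overlap, and the log2 change was -1.01 ± 0.25 (SE, limma adjusted p = 0.00316). Pla1a, a secreted phospholipase, and Ccdc80, a secreted matrix protein, had -1.09 and -1.01, and Rhpn1 and Hcfc2 had -1.01 each. On the authors' fold enrichment Pla1a, Ccdc80 and Tpbg were not past the threshold, as Lox above.

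TGACTCA was in 8 of the 72 promoters in members called lower, or 11.1%. It was in 2 of 227 promoters in members called higher, or 0.881%, and in 2.60% of 4995 promoters in members that were not called. Counted by region, 7 of the 130 members with the word were lower and 2 higher, against 53 and 180 of the 4121 without it. The 7 are the 5 printed above, Atp5g1, a subunit of ATP synthase, and Kbtbd7. The 2 higher ones were Cav2, a caveolin, and Cdca4. The regions are few, and the share called lower was 1.54% with and 0.607% without the word when day 0 replicate 3 was left out. Without centring 0 of the 130 and 1 of the 4121 were called lower. The median log2 change was 0.10 with the word and 0.08 without it, so the word did not go with a lower height in most members that hold it. No test of these shares was made.

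Of the printed set, S100a11, a calcium-binding protein, had 2.63, 3.81 and 2.18 FPM at day 0 and 1.02, 3.21 and 0.685 at day 1, with overlapping values and a log2 change of -0.89 (limma adjusted p = 0.0310). Glrx, the redox enzyme glutaredoxin, had a log2 change of -0.64, and Arhgap18, a GTPase-activating protein, of -0.59. The changes of this set that the named-gene rule did not select were chosen for display after their values were seen.

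A CpG ratio over 0.6 was found in 68.1% of the promoters in members called lower and in 87.7% of those in members called higher. Of 586 members whose promoters had a CpG ratio of 0.6 or less, 19 were higher and 20 lower, so 3.41% were lower. Of 3665 members above that ratio, 163 were higher and 40 lower, so 1.09% were lower. The members called higher had a CpG ratio of 0.884 in the median and those called lower of 0.689. No test of this difference was made.

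Of 24 adipogenic factors 6 had a member, or 25% against 29.3% of all coding genes, and 2 of the 6 were called higher, where 4.55% of all members were. Cebpa, a master regulator of adipocyte differentiation, had 4.18, 4.68 and 2.18 FPM at day 0 and 6.10, 5.35 and 2.88 at day 1. In these units the days overlapped, but relative to the library all day 1 values were above day 0, with a log2 change of 0.59 ± 0.19 (SE, limma adjusted p = 0.0299). Klf5, another activator of adipogenesis, had 0.67, and the other 4, Klf9, Creb1, Ebf1 and Nr1h3, were not called. Neither call remained on fold enrichment or without centring.

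Of 29 lipid genes of mature adipocytes, 12 had a member, or 41.4%, and 3 of the 12 were called, where 6.24% of all members were. On fold enrichment and after quantile normalization 1 of the list was called. Lpl, the lipoprotein lipase, and Pnpla2, the triglyceride lipase ATGL, were higher, with log2 changes of 0.69 and 0.72. Scd1, the stearoyl-CoA desaturase, was lower, with 4.90, 4.92 and 4.48 FPM at day 0, 3.46, 3.03 and 0.959 at day 1 and a log2 change of -0.93 (limma adjusted p = 0.00205). Dgat1, Acsl1 and Plin4, the tallest of the list, were not called. In the cholesterol list Insig1, the retention protein of the SREBP pathway, was higher by 0.50, and the other 16 were not called.

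Calls in the lists with the most members are given beside 4.55% higher and 1.70% lower over all members. In translation 4 of 49 were higher, namely Eif2d with 1.10, Eif4a2 with 1.00, Eef1d with 0.71 and Eif4g1 with 0.67. Splicing had 2 higher and 1 lower of 47, the cytosolic ribosome 2 higher of 50 and the mitochondrial ribosome 3 higher of 47. Oxidative phosphorylation had 3 higher, Cox6b1, Sdha and Atp5j, and 1 lower, Atp5g1, of 46, where Sdha and Atp5j share their region with Ccdc127 and Gabpa. Cdkn1b, which encodes the cell cycle inhibitor p27, was the 1 member of 20 in the cell cycle list that was called, with 0.55. Among immediate early genes, clock genes, insulin and mTOR signalling, and chromatin regulators, 0 of 13, 0 of 11, 0 of 16 and 0 of 15 were called by limma. These counts moved with the scale. On fold enrichment 1 was called in translation, 1 in splicing, 2 in oxidative phosphorylation and 0 in both ribosome lists. After quantile normalization the numbers were 4, 3, 3, 0 for the cytosolic and 1 for the mitochondrial ribosome, and without centring 0 members of these lists were called. In the 4 lists with 0 calls, at an unadjusted p under 0.05 the numbers were 1, 2, 2 and 3. On fold enrichment 1 of the immediate early genes was called and after quantile normalization 1 of the chromatin regulators.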

How the data were processed

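Peaks were called by the authors in each library separately with MACS2 2.2.7.1, on paired-end fragments without a control library, at a q cutoff of 0.05 and with a local background over 10000 bp, per the file headers. The mm10 build, Bowtie2 2.4.4, Trim Galore 0.6.7, HOMER 4.11, SAMtools 1.15.1, DiffBind 3.8.4 and deepTools 3.5.1 are named in the submitters' processing notes without a role. The deposited pileup is a signal, the whole number of fragments over the summit, not scaled to depth. The deposited fold enrichment is a ratio of pileup to local background with 1 added to each, and the deposited −log10 p and −log10 q values compare the same quantities. The fold enrichment is the authors' own value for each peak. Peak positions and lengths are given in bp, per the file headers.

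Peaks of the 19 autosomes, X and Y were merged at 1 bp of overlap, which left out 7 to 19 peaks per library. The height of a region is its highest summit in a library, and its width there is the sum of that library's peaks. Genes are those of RefSeq on GRCm38.p6, whose gene table lists ends without strand. Strands, start sites and promoters came from the RefSeq promoter table of the same build, which lists no promoter on chromosome 18, so its 166 members have no start site or word here. Some genes of other chromosomes also lack a listed strand, such as Mrpl15 and Tcea1 on chromosome 1. Exon, intron and UTR positions were not used.

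Exact two-sided permutation over the 6 libraries compared days where a library gives 1 value. Changes per region were fitted with limma 3.58.1 in R 4.3.3, with a trend in the prior variance, on the centred log2 pileup. No count model was used, since a pileup at a summit is not a count of reads per region. Tested on simulated data for the comparison of days with 9136 regions, 42% of planted changes of 1 on the log2 scale and 89% of changes of 2 were recovered, with 2 false calls. The simulated libraries differed in typical height and in random spread of an assumed size. The false calls therefore do not cover differences in enrichment between libraries. Same-numbered replicates were not treated as pairs.

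Members are named by the gene whose end is nearest. The rule names the 10 tallest, the 12 with the largest called change in each direction whose days do not overlap in relative height, the 5 widest and narrowest, up to 3 of the tallest per list, and those at the distance limit. Predicted genes are not named. One of the higher members under this rule is not reported here. Others named, such as called list members, were picked after their values were seen. The members and lists were chosen with earlier results of these data known.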

Additional observations from a re-analysis of the deposited data

How the results depend on the processing

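The number of members was 3632 when each library kept its 12556 strongest peaks and 1997 when the peaks of each library had to cover 50% of the region, and 5548 to 6759 when 1 library was left out. The difference in median height turned to 0.0551 when heights were divided by the median over shared regions (exact permutation p = 0.1), and ran from -0.684 to 0.520 without 1 library, being above 0 without day 0 replicate 2 (0.0645) and without day 1 replicate 3. Leaving out 1 library moved the width difference between -193 and -108 bp, the ratio difference between 0.0590 and 0.128, and the share of tallest peaks between 11.3 and 14.3 points. Called members, higher and lower, were 3, 2 and 1 without centring, 168, 110 and 58 among the 3188 members above the median height, and 134, 90 and 44 on fold enrichment. Without 1 library the totals ran from 166 to 377, with 118 to 277 higher and 48 to 122 lower. The lowest were without day 0 replicate 3, at 166, and of the 346 called members 157 were among them. Totals were 209 without day 0 replicate 1 and 197 without replicate 2. Without centring, 21 of the 24 named changes lost their call, fold enrichment lost 4, and 0 were lost or reversed under the other 11 alternatives, one of which tested 8 of them. Without centring 0 of the 24 reversed, and the log2 changes at Psme1 and Anxa5, for example, were 1.31 and -1.46. With a replicate block the calls were 261 higher and 95 lower. Deviations of same-numbered libraries had r from -0.04 to 0.05, against -0.07 to 0.06 for libraries with other numbers. These values cannot tell whether the libraries were made in pairs, which the labels do not state. With pairs as blocks the height, width, ratio and share differences of -0.217, -148, 0.105 and 13.3 had exact permutation p of 0.75, 0.25, 0.25 and 0.25, where 0.25 is the smallest possible, and 339 of the 346 called members were among the 356 called with the block. Excluding chromosomes 10 and 15 was chosen after seeing the data. At day 1 the median member rests on 15 to 25 fragments at its summit, with the lowest in replicate 3, which has the most fragments of that day.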
